A study of Mus musculus with 4 samples.

Results

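CTCF peaks at internal alternative transcript starts of mouse protein-coding genes are described here, in gastrocnemius, the large calf muscle. A peak was taken where its summit, the position of highest signal, lay within 500 bp of the annotated start of any transcript of a protein-coding gene but more than 1000 bp from every annotated gene start. By this rule 1260 of the 41000 autosomal peaks of the authors' conservative list (3.07%) belonged to the set. The rule used position alone, so strength, motif, strand and base composition did not enter it. An internal start is an annotated position: the lists hold no RNA, so neither the use of these starts nor the labelled tissue could be checked on expression here.

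CTCF was mapped by chromatin immunoprecipitation and sequencing in 4 libraries from adult female mice of the hybrid strain B6CASTF1/J at 2 months of age. They came from a pair of pools, E and F, which combined 2 gastrocnemius samples each and were sequenced in 2 technical replicates each, from frozen tissue with fragments of 200 to 600 bp. There was no treatment and no second genotype, and reads of the hybrid were placed on mm10 with no distinction between alleles. Whole muscle holds fibres together with connective, vascular, nerve and immune cells, which a peak list does not separate. The technical replicates of a pool had been merged by the authors, so no value below has a spread between replicates. Intervals are 95% intervals (Wilson for a share, Newcombe for a difference of shares, exact Poisson for a density), which cover counting error only. They treat peaks, starts or genes as independent, and no p-value is given. A peak can lie in reach of several starts, so intervals for shares of starts may be too narrow. Read depth is unknown, since the lists hold no counts.

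CTCF is a zinc-finger protein that recognises a long, directional DNA motif, halts cohesin and anchors many chromosome loops. At promoters it can separate or connect regulatory elements, and inside genes it can bind beside alternative promoters and alternative exons. Many genes of muscle, among them those of tropomyosin, plectin and titin, make several transcripts from separate starts, so that the first exon of one transcript lies within an intron of another.

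The sequences of the strongest peaks with a motif show what CTCF was found on at these starts. Each of the following runs of 30 bases is written 5′ to 3′ along the strand of the motif, from the mm10 (GRCm38.p6) genome, with the 14 bases matched to the CTCF consensus in capitals. The first 10 belong to the strongest peaks of the set with a motif, and the last 2 are the strongest exact matches in each orientation, in both cases leaving out Rnf14 and Mro, whose sequences are not shown.
Pick1, chr15:79243365-79243394, + strand: gcctttgaCCAGGAGGTGGCGCtgctgtcc
Pik3r2, chr8:70769546-70769575, - strand: tctcctgcTCACCAGGGGGCGCtcgtgcgc
Adam11, chr11:102774015-102774044, + strand: cactctggCCACTGGGAGGCGCtcgagcct
Rinl, chr7:28796868-28796897, + strand: gccccgcgCCGCAAGGTGGCGCtgttgctg
Sema3b, chr9:107602213-107602242, + strand: agaagcagCCACGAGGGGGCAGtagagacc
Klhdc8b, chr9:108452798-108452827, - strand: cctagtggCCTCTAGGGGGCGCcgctggga
Pde2a, chr7:101450507-101450536, + strand: gcgatagaACACCAGGGGGCGCaggagcgt
Mtss1l, chr8:110727026-110727055, - strand: gcctcgggCCACTAGGCGGCGCgctgttcc
Pear1, chr3:87769137-87769166, - strand: cctgaaggCCGCCAGGGGGCGCcgccgggc
Arhgef2, chr3:88607590-88607619, + strand: cctttgtaCCAGCAGGGGCCGCtcttgtcc
Csk, chr9:57645687-57645716, - strand: tccaaggtCCAGCAGAGGGCGCcgacccac
Zdhhc19, chr16:32499859-32499888, - strand: gctgggatCCAGCAGGTGGCGCtgtggtcc
Of the first 10, Adam11 and Rinl carried 2 mismatches to the consensus and the other 8 carried 1. Csk encodes a kinase that restrains Src, and Zdhhc19 encodes a palmitoyltransferase. The motif read along the transcript at Csk and against it at Zdhhc19.

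CTCF summits were denser at internal starts than in the rest of the gene body and sparser than at gene starts. Internal starts had 45.4 summits per Mb of eligible sequence (42.9 to 48.0). Gene starts, meaning sequence within 500 bp of the start of a protein-coding gene, had 161 per Mb (156 to 167). Other genic sequence, as used below, lies within protein-coding genes and over 1000 bp from every annotated gene start. It also lies over 500 bp from every transcript start of a protein-coding gene. There the density was 19.3 per Mb (19 to 19.6).

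Exon starts were also denser than the rest of the gene body. Around those that are not transcript starts there were 27.8 summits per Mb (26.9 to 28.7), against 17.9 (17.6 to 18.2) in genic sequence away from exon starts. Some GENCODE transcripts are marked as having an incomplete 5′ end, so that their first annotated base need not be a start. Internal starts with such transcripts alone had 30 summits per Mb (24.8 to 35.9), an interval that holds the value for plain exon starts. Internal starts with a complete transcript had 47.9 (45.2 to 50.8), above both. Masked repeats made up 17.2% of the internal-start sequence and 27.7% of other genic sequence. Per unmasked Mb the densities were 54.8 and 26.7, in the same order.

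**Figure D1:**
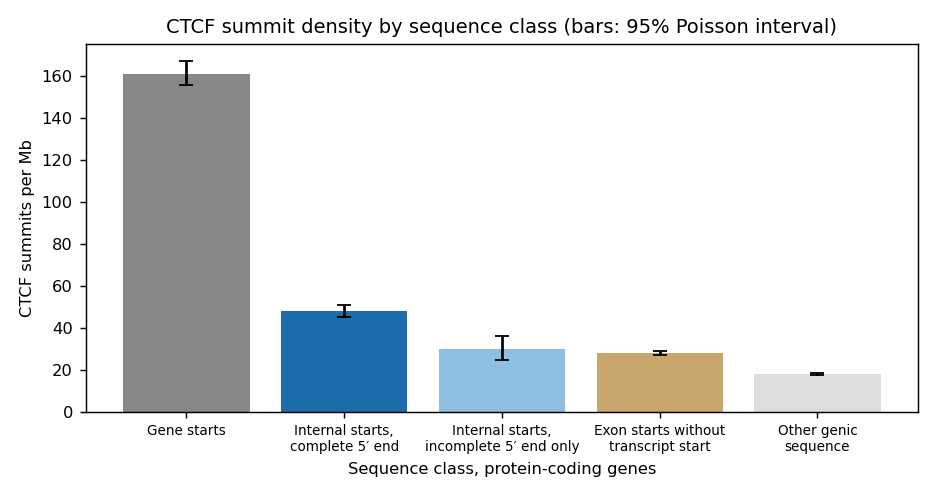
CTCF summits of the conservative list per Mb (y axis, from 0) in 5 classes of sequence of protein-coding genes (x axis), with bars as exact 95% Poisson intervals. Complete internal starts (47.9) stand between gene starts (161) and exon starts without a transcript start (27.8), while internal starts with an incomplete 5′ end only (30) are close to the exon starts.

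Most internal starts had no CTCF peak. Of 32729 distinct internal starts whose whole 500 bp window was eligible, 1797 had a summit (5.49%, 5.25 to 5.74), against 16.1% (15.6 to 16.6) of protein-coding gene starts. The share varied with the annotated type of transcript, taken over transcripts with a complete 5′ end, where a start shared by several types counts under each. It was 8.19% (7.64 to 8.77) for starts of protein_coding transcripts and 11.6% (9.23 to 14.5) for nonsense_mediated_decay transcripts. For retained_intron and processed_transcript starts, types with no annotated reading frame, it was 4.48% (4.12 to 4.88) and 4.82% (4.34 to 5.35). Starts of transcripts with an incomplete 5′ end, whatever their type, had 3.44% (2.97 to 3.98).

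The 1260 peaks belonged to 1135 of 12712 genes with an internal start (8.93%), and 1021 of those genes had 1 peak, 103 had 2 and 11 had 3. No peak lay within 500 bp of starts of more than 1 gene, and 829 (65.8%) had a single transcript start in reach. The nearest start lay in an intron of another transcript of the gene for 768 peaks (61.0%) and in an exon for 492 (39.0%). Of the 32729 internal starts more than 1500 bp from every gene start, 48.3% lay in an intron. The nearest start of a peak could lie closer to a gene start than that, so the sets are not alike. The median distance from the nearest transcript start to the start of its gene was 14112 bp, against 19209 bp for those 32729 starts. Summits themselves fell in introns in 759 cases, in untranslated regions in 175, in coding exons in 167, in noncoding exons in 158 and outside genes in 1. Peaks in untranslated regions were the weaker ones, with a median strength of 156.8 and a motif in 49.7% (42.4 to 57.0), against 254.5 and 70.9% (67.6 to 74.0) for those in introns.

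Genes with an internal peak were longer and had more starts than others. The rule itself favours this, since more starts give more sequence in which a peak can count. Their median length was 38.9 kb, against 25.2 kb for genes with an internal start and no peak, and they had a median of 7 distinct starts against 5. A summit also lay within 500 bp of the gene start in 230 of the 1135 (20.3%, 18 to 22.7), against 17.8% (17.1 to 18.5) of the genes without an internal peak. No interval was computed for this difference, and the groups were not matched for length or number of starts. By chromosome, the share of autosomal peaks at internal starts ran from 2.01% on chromosome 13 to 4.41% on chromosome 7, which held 123 of the set.

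Peak strength is the score that the authors gave each peak, on a scale that was not stated. It ran from 12.5 to 647.7 at internal starts, with a median of 239.1 and quartiles of 112.5 and 444.9. The median was 207.2 at gene starts, 231.6 at other genic sites and 247.0 over all autosomal peaks. Of the internal peaks, 613 (48.7%, 45.9 to 51.4) were above that last value, near the share that a median gives by definition. Among the 4100 strongest autosomal peaks were 153 internal ones (12.1%, 10.5 to 14.1), against 9.93% of the autosomal peaks elsewhere. This share was 3.11 percentage points (1.37 to 5.07) more than at other genic sites and 0.382 points (-1.67 to 2.58) from the share at gene starts.

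The ranked list of both pools gives the strength in each of 2 inputs. The first input carried the strengths of the ranked pool E list at all 1260 peaks, and the second those of the ranked pool F list at 1243 (98.7%). The first input was higher at every internal peak, by a median of 1.05 on the log2 scale (SD over peaks 0.40, range 0.19 to 2.32), against 1.03 over all autosomal peaks. At the 10 strongest peaks the gap was 0.33 to 0.46, below the median of the set.

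**Figure D2:**
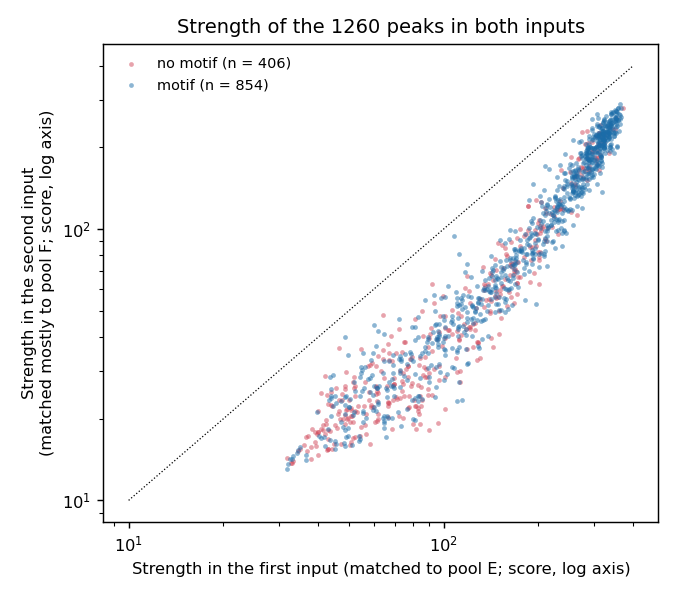
Strength of each of the 1260 peaks in the first input (x axis, matched to pool E) and the second input (y axis, matched mostly to pool F), as the authors' scores on log axes, with the dotted line at equal strength. All points lie below the line, and points without a motif (red, n = 406) are more common at low strength than those with one (blue, n = 854).

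Prss36 apart, the 10 strongest internal peaks all had a motif. The strongest, at chr15:79243152-79243538 in Pick1, a PDZ-domain protein that binds protein kinase C, had a strength of 647.7, with 362.8 in the first input and 288.5 in the second. Its summit lay 375 bp downstream of the start of a retained_intron transcript. The next, at chr7:127935413-127935755 in the serine protease gene Prss36, had 644.6 (370.2 and 279.5), a CpG-rich window and no match to the consensus, 73 bp upstream of a processed_transcript start. In Pik3r2, which encodes a regulatory subunit of phosphoinositide 3-kinase, the peak at chr8:70769345-70769726 had 642.6 (364.6 and 280.3), 121 bp downstream of a retained_intron start. Adam11, a member of the ADAM family without protease activity, had 642.1 (358.5 and 280.5) at chr11:102773857-102774215, 47 bp upstream of a processed_transcript start in an intron.

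The other 6 ran from 626.2 down to 620.5 and had first-input values of 350.1 to 362.6. Rinl, an exchange factor for a Rab GTPase, had 626.2 at chr7:28796701-28797051, 61 bp upstream of a start marked incomplete. Rnf14, an E3 ubiquitin ligase gene, had 625.6 at chr18:38296392-38296765, 48 bp upstream of a protein_coding start with 18 transcript starts within 500 bp. Sema3b, a secreted semaphorin gene, had 625.5 at chr9:107602047-107602391, 50 bp upstream of a retained_intron start in an intron. Klhdc8b, a kelch-domain gene, had 623.8 at chr9:108452633-108452990, 16 bp upstream. Pde2a, a cyclic nucleotide phosphodiesterase gene, had 622.3 at chr7:101450346-101450698, with the summit on the first base of a protein_coding transcript. Mtss1l, an actin-binding protein gene, had 620.5 at chr8:110726866-110727219, 297 bp upstream of a start marked incomplete.

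These are the strongest peaks of the conservative list, not of all candidates. By the same positions the ranked list of both pools held 3237 candidates, of which 1260 were in the conservative list. Among the rest, 10 were stronger than 647.7, up to 720.5, while the median of those left out was 21.4. Of the 10 strongest peaks of the set, 1 (Adam11) was in the pool E list and 7 were in the pool F list. Why the strongest candidates are missing from the thresholded lists was not tested.

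At the weak end stood Kansl1, Psma6 and Slc16a3. Kansl1, a scaffold of a histone acetyltransferase complex, was listed at 15.5 although its inputs were 185.3 and 122.1. Psma6, a proteasome subunit gene, had 14.3 with inputs of 40.0 and 17.9. Slc16a3, the lactate exporter gene of glycolytic fibres, had 12.5 with inputs of 69.4 and 26.9. All of these were in CpG-rich windows without a motif.

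Found again at a reciprocal overlap of 50%, 1087 internal peaks (86.3%, 84.3 to 88.1) were in the pool E list, against 87.7% of all autosomal peaks. In the pool F list, 834 (66.2%, 63.5 to 68.7) were found, against 66.2%. Both shares are at their background. Both pool lists held 741 peaks (58.8%, against 59.7% of all autosomal peaks) and neither held 80 (6.35%, against 5.72%). Pool E alone held 346 (27.5%) and pool F alone 93 (7.38%). For all autosomal peaks, shares in 1 list alone and motif and strength by list were not computed. The values by list that follow may thus not be particular to internal starts. Internal peaks in both lists had a motif in 75.3%, which was 19.5 points (13.5 to 25.6) more than those in pool E alone. The share was as high in pool F alone, at 76.3% (66.8 to 83.8), and was 40.0% in neither list. Peaks in both lists were also stronger than those in pool E alone, with medians of 357.3 and 104.9. Whether the motif shares differ at equal strength was not tested. In 4 groups of 315 by strength, from weakest to strongest, the pool F list held 21.9%, 68.6%, 75.9% and 98.4%. The pool E list held 70.5%, 91.4%, 100% and then 83.2%, and in the strongest group this stayed at 83.2% with an overlap of 1 bp. The 93 peaks of pool F alone had a median strength of 521.9, against 104.9 for the 346 of pool E alone. These groups hold at a reciprocal overlap of 50% only. With an overlap of 1 bp, 43 of those 93 peaks (46.2%) met a peak of the pool E list. So did 65 of the 80 peaks in neither list (81.2%).

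A CTCF consensus of 14 bases, with at most 2 mismatches and its centre within 50 bp of the summit on either strand, was found at 854 of 1260 internal peaks (67.8%, 65.1 to 70.3). Over all autosomal peaks the share was 77.6%. In windows moved 2000 bp to either side of the internal summits it was 4.6% (3.85 to 5.49). The match was exact at 127 peaks, had 1 mismatch at 322 and 2 at 405. Its centre lay a median of 6.5 bp from the summit and within 10 bp in 66.4%. Strength followed the match, with a median of 478.2 for exact matches, 321.7 for all peaks with a motif and 132.2 for those without. Over the same 4 groups by strength the motif share was 43.5%, 63.2%, 75.9% and 88.6%.

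Internal starts stood between gene starts and other genic sites in motif share. Gene starts had a motif in 46.9%, which was 20.9 points (17.8 to 24.0) below internal starts. Other genic sites had one in 80.8%, a difference of -13.1 points (internal minus other genic, -15.7 to -10.5). Base composition ran the opposite way, with internal starts again in the middle. A CpG-rich window, here 100 bp to either side of the summit with at least 50% GC and an observed over expected CpG of at least 0.6, was present at 359 internal peaks (28.5%, 26.1 to 31.0), against 10.4% of all autosomal peaks, 68.6% of gene starts and 2.88% of other genic sites.

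Within CpG-rich windows the motif share was 47.1% at internal starts, 41.5% at gene starts and 59.5% at other genic sites. The gap between internal and gene starts was then 5.61 points (0.0954 to 11.2), smaller than over all peaks. In windows that were not CpG-rich the shares were 76.0%, 58.6% and 81.5%, with 17.4 points (13.2 to 21.5) between internal and gene starts. Internal starts stayed below other genic sites in both kinds of window, with differences of -12.5 points (-19 to -5.74) and -5.44 points (-8.39 to -2.70). Summits within masked repeats were 9.76% at internal starts, 3.85% at gene starts and 24.2% at other genic sites.

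**Figure D3:**
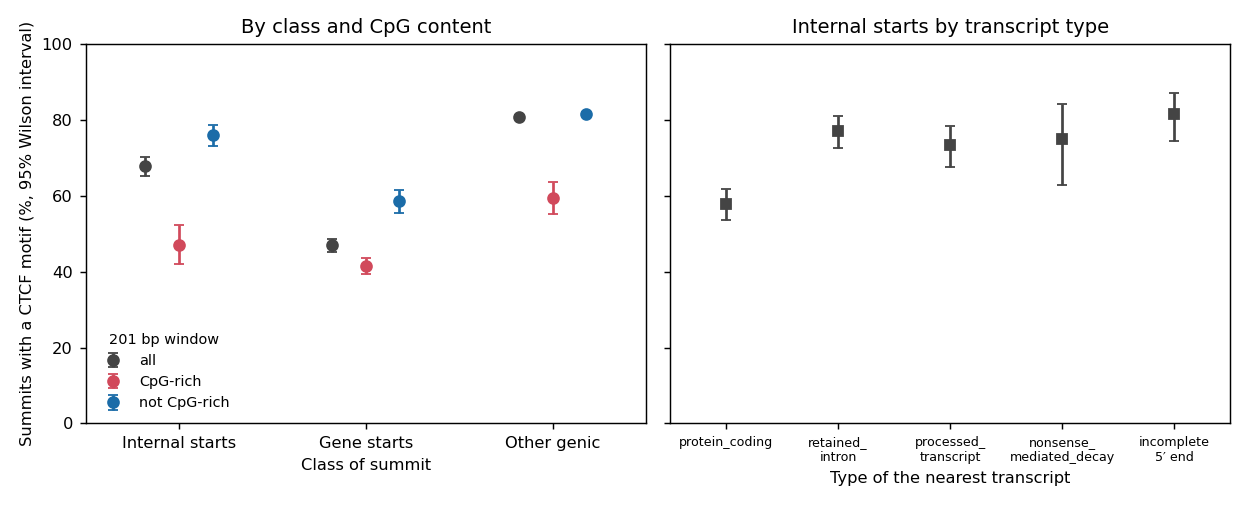
Share of summits with a CTCF motif (y axis, percent, with 95% Wilson intervals) by class of summit and CpG content (left) and, for internal starts, by type of the nearest transcript (right; peaks with an incomplete 5′ end also count under their type). CpG-rich windows have the lower motif share in each class, and protein_coding starts (57.8%) lie below retained_intron starts (77.1%).

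The kind of transcript went with the kind of peak. The nearest start was that of a protein_coding transcript for 555 peaks (44.0%), retained_intron for 393 (31.2%), processed_transcript for 252 (20.0%) and nonsense_mediated_decay for 60 (4.76%). Peaks at protein_coding starts had a motif in 57.8% (53.7 to 61.9) and a CpG-rich window in 42.7%. Those at retained_intron starts had 77.1% (72.7 to 81.0) and 14.5%, a difference of 19.3 points (13.3 to 24.9) in motif and of 28.2 points (22.6 to 33.4) the other way in CpG-rich windows. Their median strengths were 215.0 and 289.4, and 12.7 points (6.22 to 19) more of the retained_intron peaks were above the median strength of all autosomal peaks. In windows that were not CpG-rich the motif shares were 67.3% (62.0 to 72.2) for protein_coding and 81.5% (77.1 to 85.3) for retained_intron starts. Within CpG-rich windows they were 45.1% (38.9 to 51.5) and 50.9% (38.3 to 63.4), intervals that overlap. The strongest peak at a nonsense_mediated_decay start was in Hdac11, a histone deacetylase gene, at 602.3 (340.6 and 265.2).

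Starts marked as incomplete made up 141 of the set. Their peaks had a motif in 81.6%, which was 15.5 points (7.82 to 21.7) more than at complete starts, and a CpG-rich window in 16.3% against 30%. In both measures they lay closer to other genic sites than the complete ones did. GENCODE also grades transcripts by support level, from 1 (best) to 5. The nearest transcript was at level 1 for 398 peaks (31.6%), of which 44.5% had a CpG-rich window and 63.3% lay upstream. At level 5 there were 221 peaks, with 26.2% and 47.5%.

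Summits were not spread evenly over the 1000 bp window. They lay upstream of the nearest start in 708 of 1260 cases (56.2%, 53.4 to 58.9), in the direction of transcription. The fullest bin of 20 bp ran from 60 to 41 bp upstream and held 73 summits (5.79%), against a median of 22 per bin. From 40 to 79 bp upstream there were 130 summits (10.3%, 8.76 to 12.1), and from 40 to 79 bp downstream there were 54 (4.29%, 3.30 to 5.55), while each such window is 4% of the positions. These windows were chosen after the values were seen. Positions were taken from the nearest start in reach, which favours short distances where there are several, so 4% is not an expected share. The share upstream was close to that at gene starts, which had 10.5% (9.52 to 11.7) upstream and 5.60% (4.85 to 6.45) downstream.

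The next sequences show the place of the motif. Each is the 80 bases that end just before the transcript start, 5′ to 3′ along the transcript in mm10, with the bases that match the consensus on either strand in capitals. They lie in introns or upstream of any annotated exon.
Adam11, chr11:102774001-102774080, + strand: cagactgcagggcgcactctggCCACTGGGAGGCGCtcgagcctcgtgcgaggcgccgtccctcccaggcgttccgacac
Sema3b, chr9:107602167-107602246, - strand: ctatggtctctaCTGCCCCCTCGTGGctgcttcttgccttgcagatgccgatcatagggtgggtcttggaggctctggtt
Dcst1, chr3:89354899-89354978, - strand: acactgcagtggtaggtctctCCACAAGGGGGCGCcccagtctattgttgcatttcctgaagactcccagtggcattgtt
The motif centres lay 51.5, 61.5 and 52.5 bp upstream of the starts, and the summits 47, 50 and 58 bp upstream. Motifs lie close to summits, so these positions follow from the choice of examples and do not show where motifs lie in general. Over all 854 peaks with a motif, 12.6% of motif centres lay 40 to 79 bp upstream. At Sema3b the motif reads against the transcript, so its reverse complement stands in capitals. Dcst1 had a strength of 615.1 (351.6 and 265.1) at a retained_intron start.

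The upstream excess was found in each list, with a different size. In the pool E list it was 8.61% upstream against 5.09% downstream, and in the pool F list 11.4% against 3.05%. The fullest bin was 60 to 41 bp upstream in the pool E list and 80 to 61 bp upstream in the pool F list. Over the 4 groups by strength the upstream share was 8.25%, 8.25%, 9.84% and 14.9% (11.4 to 19.3). Of the 10 strongest peaks 5 were in the window, Prss36, Adam11, Rinl, Rnf14 and Sema3b. It was 12.1% (9.99 to 14.6) for starts in an intron of another transcript and 7.52% (5.50 to 10.2) for starts in an exon. Complete starts had 10.8% and incomplete ones 6.38%, a difference of 4.43 points (-1.13 to 8), an interval that holds 0. Peaks without a motif had 9.11% (6.68 to 12.3) there and peaks with one 10.9% (8.97 to 13.2).

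**Figure D4:**
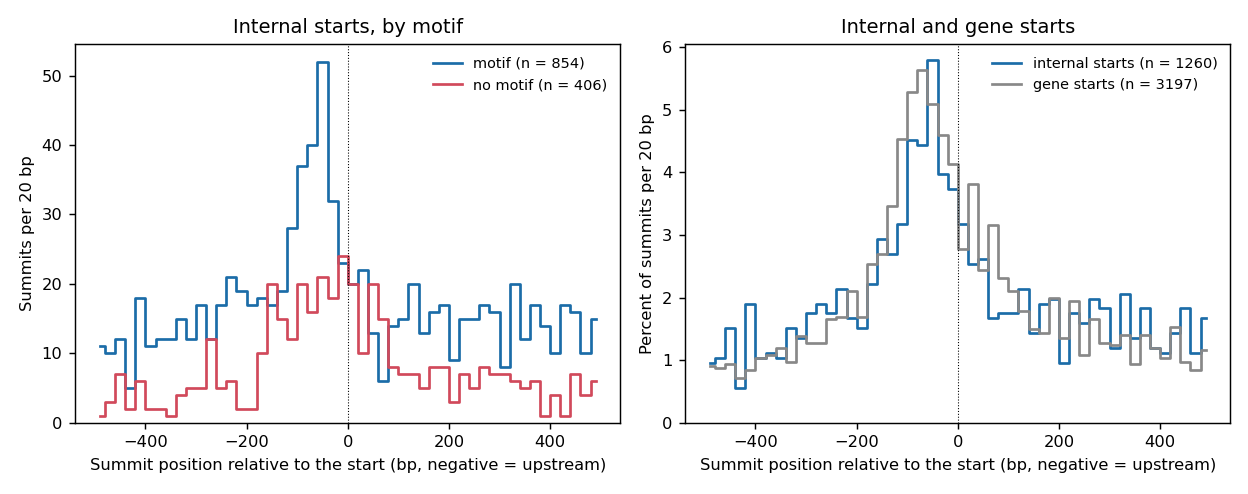
Summits per 20 bp against their position relative to the nearest start (x axis, bp, negative upstream): counts at internal starts with and without a motif (left) and percent of summits at internal and gene starts (right). Summits with a motif have a narrow peak just upstream of the start over a flat floor, those without have a broad rise around it, and the 2 classes of start have like profiles.

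Internal and gene starts, of which 28.5% and 68.6% had a CpG-rich window, differed in the orientation of the motif. At internal starts it read along the transcript in 415 of 854 peaks (48.6%, 45.3 to 51.9), and at gene starts in 914 of 1498 (61.0%, 58.5 to 63.5). The difference was -12.4 points (-16.6 to -8.24). Upstream of the start the shares were 47.8% (43.4 to 52.3) and 66.9% (63.9 to 69.8), whereas at or downstream of it they were 49.6% (44.5 to 54.7) and 50.1% (45.8 to 54.3). In the window 40 to 79 bp upstream, 50 of 93 motifs at internal starts read along the transcript (53.8%) and 133 of 182 at gene starts (73.1%), -19.3 points (-31.0 to -7.36). In the other lists (combined, pool E, pool F) the shares were 48.5%, 48.2% and 48.2% at internal starts and 59.5%, 58.5% and 62.3% at gene starts. Among CpG-rich internal peaks the share was 56.2% (48.7 to 63.5) and among the others 46.7% (43.0 to 50.5). These intervals overlap, but overlap does not show that the shares are equal, and no interval for the difference was computed. Gene starts were not split by CpG content in this way.

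**Figure D5:**
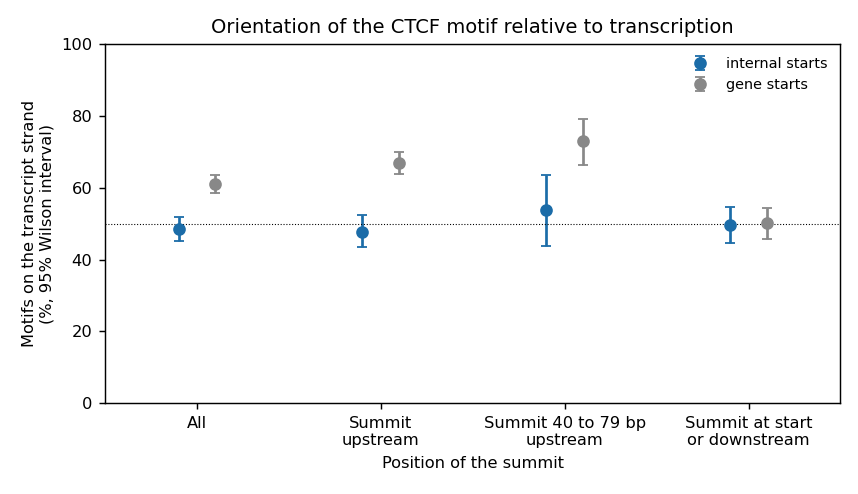
Share of motifs that read along the transcript (y axis, percent, with 95% Wilson intervals; dotted line at 50) at internal and gene starts, by position of the summit (x axis). Gene starts rise to 73.1% at 40 to 79 bp upstream, while internal starts stay between 47.8% and 53.8%.

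The members were next read by gene group, against the 8.93% of all genes with an internal start that had a peak. Longer genes with more starts have more sequence in which a peak can count, so the share of starts with a peak, 5.30% over all genes, stands beside each. The groups were drawn up with earlier results of these data known and none was tested.

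Among 41 genes known for alternative starts, 12 had a peak (29.3%, 17.6 to 44.5), as did 8.59% of their starts (6.18 to 11.8). Tpm1, which makes muscle and non-muscle tropomyosins from separate promoters, had a peak of 503.7 (274.6 and 227.9) in a CpG-rich window without a motif, 94 bp upstream of an internal start. In Plec, the gene of the cytolinker plectin, which has many alternative first exons, there were 2 peaks with motifs, of 484.6 (296.0 and 188.5) and 314.7 (225.6 and 85.2). Ttn, the giant spring of the sarcomere, had 477.3 (304.2 and 178.2) with a motif along the transcript, 248 bp upstream of a start that lies 2365 bp from the gene start. These 3 genes thus had strong peaks of differing kind. The second input was the lower one in each, as at every internal peak. The Ttn peak and both Plec peaks lay at starts of transcripts with support level 5. The starts at Ttn and at the stronger Plec peak lie in an exon of another transcript. The list names genes, so these starts need not be their known alternative promoters.

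Pde4d and Tcf7l2 followed. The 2 peaks of Pde4d, a cyclic AMP phosphodiesterase gene, had 477.2 with a motif and 90.2 without. Tcf7l2, a transcription factor of Wnt signalling, had 468.4 with its summit 57 bp downstream of the start. Dst and Utrn, genes of the cytolinker dystonin and the dystrophin relative utrophin, had 429.2 and 166.0, both without a motif. Cux1, Pde4a and Nrg1 had 140.3, 118.9 and 207.7. Myl1, whose fast-fibre light chains come from a pair of promoters, had no peak at an internal start.

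The sarcomere list had a peak in 6 of 34 genes (17.6%, 8.35 to 33.5) and at 6.11% of its starts. Tnnt1, the slow troponin T gene, had 530.0 (323.9 and 209.7) and 154.7 (110.6 and 42.1), neither with a motif nor in a CpG-rich window. Myl2, the slow regulatory light chain gene, had 421.7 (253.1 and 162.0) with an exact motif, 472 bp downstream of a start marked incomplete. Mylpf, its fast counterpart, had 411.9 (264.2 and 143.1) with a motif against the transcript. Mybpc1 and Synpo2 were weaker at 204.2 and 106.6, and Actn2, a gene of the Z disc, had none. Excitation-contraction coupling genes had a peak in 3 of 23 (13%, 4.54 to 32.1) and at 5.49% of starts. Cacnb1, a subunit of the voltage sensor, had 240.2 with an exact motif; Dysf, a membrane repair gene, had 158.4; and Trdn, which links the calcium release channel to its store, had 92.9. The channel gene Cacna1s had none.

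Regulators of muscle transcription and signalling had a peak in 5 of 33 genes (15.2%, 6.65 to 30.9) and at 7.69% of starts. Acvr2b, the receptor for myostatin, had 544.1 (323.3 and 224.9) with an exact motif against the transcript. Sox6, a repressor of slow fibre genes, had 402.8 (234.0 and 172.4) with its summit 498 bp from the start. Weaker peaks were found in Tcf4, with 74.9 and 51.5, and in Nfatc1, with 72.2, and none of these was in the pool F list. Pax7, the satellite cell factor, had none.

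Genes of glucose, glycogen and fat metabolism had a peak in 10 of 27 (37%, 21.5 to 55.8) and at 21 of 108 starts (19.4%, 13.1 to 27.9). Their 14 peaks, some of them in reach of several starts, had a median strength of 302.1, and 9 had a motif. Gys1, muscle glycogen synthase, had 552.6 (335.7 and 216.1) and 378.2 (252.0 and 130.2), both with a motif and a summit in a noncoding exon, at retained_intron starts. Acacb, which makes the malonyl-CoA that limits fat oxidation in muscle, had 538.9 (323.4 and 213.6) with an exact motif and 90.7 (61.2 and 31.2) without one. Phkg1, the catalytic subunit of muscle phosphorylase kinase, had 464.1 (286.9 and 180.9) with a motif along the transcript. All 3 of these strongest genes had their top peak at a retained_intron start.

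The remaining metabolic genes ranged more widely. Acaca, the paralogue of Acacb, had 449.3 and 286.0 in CpG-rich windows with motifs. Fbp2, muscle fructose bisphosphatase, had 435.5 with an exact motif and, in the same region, a second summit listed at 60.5 although its inputs were 110.3 and 55.7. Gapdh had 303.4 with an exact motif, Prkag2, a subunit of AMP-activated kinase, had 300.8, and Pkm, pyruvate kinase, had 203.3. Ak1 had 185.6 and Pfkm, the muscle phosphofructokinase gene, had 59.6 with its summit 37 bp downstream of the start. Hk2 had none.

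Among imprinted genes, 6 of 31 had a peak (19.4%, 9.19 to 36.3), as did 7.24% of starts. Dhcr7, a cholesterol synthesis gene, had 541.5 (311.4 and 226.8) with the summit 2 bp from the start. Grb10, an adaptor that restrains insulin signalling, had 434.3 and 73.0, both CpG-rich and without a motif. Gnas, a locus with several promoters, had 203.6 and 97.5, also CpG-rich. Commd1 had 239.1, H13 had 196.4 and Zim1 had 166.9, while Plagl1 had none. Alleles were not told apart, so nothing here bears on which parental copy was bound.

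Genes of CTCF, cohesin and chromosome architecture had a peak in 4 of 29 (13.8%, 5.50 to 30.6) and at 7.64% of starts. Stag1, a cohesin subunit gene, had 605.2 (340.4 and 265.2) with an exact motif in a CpG-rich window, 14 bp upstream of a start with 10 transcript starts in reach. Pds5a, a cohesin regulator, had 504.3 (295.2 and 210.2) without a motif, 77 bp upstream. Maz had 270.9 and Bptf 108.9, and Ctcf itself had none. Long adhesion, scaffold and cytoskeleton genes had a peak in 11 of 38 (28.9%, 17 to 44.8), with 5.48% of their starts, near the 5.30% of all. Palld, an actin scaffold gene, led them with 532.0 (321.7 and 213.1) and an exact motif, and Tns1, a focal adhesion gene, had 3 peaks of 464.1, 201.8 and 156.5. Sgca, a sarcoglycan gene, had 354.7, and Macf1 had none.

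Genes that mark other cells of muscle had a peak in 4 of 26 (15.4%, 6.15 to 33.5) and at 6.52% of starts. Col1a1, the fibroblast collagen gene, had 577.1 (334.3 and 246.5) with a motif. Pdgfra, a marker of fibro-adipogenic cells, had 529.1 (311.6 and 218.0) with an exact motif and 468.8 (257.3 and 212.5), on either side of the same start. Plin1, the lipid droplet coat gene of adipocytes, had 523.7 (315.7 and 207.2) and 148.7 (93.9 and 49.7). Peaks at these genes do not say which cells were bound, and the part of other cells in any peak was not tested. Col1a2 had none. Clock genes had a peak in 2 of 20 (10%, 2.79 to 30.1) and at 2 of 58 starts (3.45%, 0.951 to 11.7). These were weak peaks without a motif in Rora (100.4) and Bhlhe40 (65.7), and Clock had none.

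Of the 11 genes with 3 peaks, those with the strongest single peaks show how members of 1 gene can differ. Cuedc1, a ubiquitin-binding domain gene, had 558.7 and 553.9 with motifs in opposite orientation and 326.9 in a CpG-rich window without a motif, at a start 1088 bp from the gene start. Park7, which guards against oxidative stress, had 545.6 with an exact motif, then 90.7 and 86.6. Amz1, a metallopeptidase gene, had 535.1 and 221.6 on either side of the same start and 73.8 at another. In Cuedc1, Park7 and Amz1 the strongest peak had a motif.

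Values were close on both sides of the 500 bp limit. The 165 peaks in the last 100 bp inside it had a median strength of 205.7 and a motif in 75.2% (68.0 to 81.1). The 154 summits in the first 100 bp outside it had 216.8 and 74.0% (66.6 to 80.3). The member at the limit itself was the peak of Amz1 at 500 bp, with 535.1, and the nearest summit left out was in Atad1, 1 bp further, with 131.1 and no motif. At the other limit, the peak of Ltbp3 with its summit 1 bp beyond 1000 bp from the nearest gene start, at 104.3, was kept, and a summit in Svil 1000 bp from a gene start, at 575.3 with a motif, was left out.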

How the data were processed

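Per the deposited notes, technical replicates of each pool were merged into 1 mm10 alignment, and 1 control alignment served both pools. Peaks were ranked and thresholded by the irreproducible discovery rate (IDR). Aligner, peak caller, versions and a further undescribed input are not given in the sources used here. Peak strength is a score the authors deposited, with no stated scale. The ranked list has a further column in which the authors deposited −log10 values of that rate, read only to check how the lists were thresholded. All lists are of merged libraries, so samples were compared through the pool E and pool F lists and the inputs. Other columns with values per sample numbered 0.

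Summits were placed by GENCODE M21, with 20807 autosomal protein-coding genes. All 19 autosomes of the peak lists fit the lengths of GRCm38.p6, whose sequence was read with pysam 0.24.0. The motif search was tested on simulated sequence. Members, gene lists and comparisons were chosen with earlier results of these data known. Named genes were the 10 strongest, the 3 with most peaks (of 11 tied at 3 peaks, those with the strongest peak), the 3 strongest of each list with its first gene without a peak, the strongest of each transcript type, the 3 weakest and those nearest each limit. Further list members are named after their values were seen. Some list members counted are not reported here by name. Chromosome X was not analysed here.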

Additional observations from a re-analysis of the deposited data

How the results depend on the processing

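Of 103 values under alternatives, 60 stayed within the 95% interval of the reported value (for counts of members, within 1.5 times), 43 did not and 0 changed direction. No paired analysis was possible because the technical replicates were merged in every list and no column holds 1 replicate; leaving out a replicate was not possible for the same reason, and each pool's list alone is the nearest alternative. The alternatives for summits 40 to 79 bp upstream were chosen after seeing the data.

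With the strongest 50% of the list there were 613 members, 2.63% of starts had a summit, the motif share was 83.4% (-5.78 points against other genic sites), 91.4% were found in pool E and 86.9% in pool F, 25% were CpG-rich and 12.4% lay 40 to 79 bp upstream. The combined list gave 6.57% of starts, 62.7% with a motif and 8.69% upstream. The pool E list gave 6.65%, 61.1% (-15.9 points against other genic sites) and 8.61%. The pool F list gave 4.5% of starts and a motif share of 74.0% (-9.34 points).

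A limit of 250 bp left 809 members, 3.51% of starts, a motif share of 64.2% (-16.5 points against other genic sites), 61.7% upstream, 33.6% CpG-rich and 16.1% at 40 to 79 bp upstream; the narrower window by itself raises that last share. A distance of 2000 bp from gene starts gave 25.1% CpG-rich. Starts of protein_coding transcripts alone, here including those with an incomplete 5′ end, gave 651 members and 6.89% of starts. Their motif share was 56.5% (9.67 points above gene starts, -24.3 against other genic sites). Of these members 43.5% were above the median strength, 63.4% were in the pool F list and 44.2% were CpG-rich. Without incomplete 5′ ends 5.85% of starts had a summit.

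With at most 1 mismatch the motif share was 35.6% (17.5 points above gene starts), and with a centre within 100 bp it was 70.4%. At 1 bp of overlap 94.8% were found in pool E and 78.6% in pool F, and at 80% reciprocal overlap 73.9% and 8.17%. Stricter CpG limits gave 24.1% CpG-rich. Except as named, causes were not tested. Depth is unknown, so the limit it sets on weak peaks cannot be given.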
